A study of Sus scrofa with 4 samples.

Results

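The aryl hydrocarbon receptor battery was followed in porcine intramuscular preadipocytes (PIP cells), in the adipocytes obtained from them (pMA) and in pMA stimulated with serotonin or with TNF-α. The battery was taken as 7 genes: the receptor AHR, its partner ARNT, and the targets CYP1A1, CYP1A2, CYP1B1, TIPARP and UGT1A6. Its members were the probes that carry one of these names on the array, and 5 of the 7 genes were found, with 11 of the 43603 probes. ARNT had 4 probes, CYP1A1, CYP1A2 and TIPARP had 2 each, and UGT1A6 had 1. No probe carried the name AHR or CYP1B1, so the receptor itself was not analysed here. In pMA stimulated with serotonin, both probes of CYP1A1, both probes of TIPARP and the probe of UGT1A6 were far brighter than in unstimulated pMA. After TNF-α, UGT1A6 was the member that differed at least 2-fold from unstimulated pMA. ARNT differed by little between the 3 arrays of pMA. The genes were selected on these same intensities, so the values describe the battery and do not test it.

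The aryl hydrocarbon receptor is a transcription factor that rests in the cytosol in a complex with chaperones of the HSP90 family. When it binds a ligand, such as a dioxin, a polycyclic hydrocarbon or an indole made from tryptophan, it moves to the nucleus, pairs with ARNT and binds xenobiotic response elements near its target genes. The targets include cytochromes P450 of family 1, which oxidize aromatic compounds, enzymes that conjugate the products, and inhibitors of the receptor, among them TIPARP. ARNT also pairs with the hypoxia-inducible factors, and the receptor has been studied in fat cells as an inhibitor of their differentiation.

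PIP is an established line from the longissimus thoracis muscle of a female Duroc pig, used here between passages 26 and 35 in medium with 10% serum. The pMA were cells kept for 4 days after confluence and then for 4 days in differentiation medium with 50 ng/mL insulin, 0.25 μM dexamethasone, 2 mM octanoate and 200 μM oleate. All 3 arrays of pMA, stimulated or not, thus share this hormone and fatty acid treatment, which the PIP cells did not receive. Stimulation lasted 12 h, with 100 μM serotonin or with 2.5 µg/mL TNF-α; the labels write the serotonin dose per ml. Each condition had 1 array, hybridized with RNA pooled within the group, and all 4 arrays lay on 1 slide. Differences between conditions could not be set against a spread between replicates, and no test was run.

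A level is the log2 intensity of a probe relative to the 75th percentile of its array, which was at an intensity of 479 to 566 on the 4 arrays. Of all probes, 56.5% were well above background in PIP cells, 56.6% in pMA, 66.0% after TNF-α and 61.0% after serotonin, and no spot was saturated. The faintest probe well above background had a level of -5.13 in PIP cells, -4.64 in pMA, -5.25 after TNF-α and -5.12 after serotonin. A probe that was not well above background was set no lower than that limit, and the fold change against it is given as "at least". Probes printed on 5 spots of an array varied with a standard deviation of 0.08 to 0.10, which gives a technical standard deviation of 0.12 to 0.13 for a log2 ratio. This error covers spots within an array and leaves out the spread between cultures. In cultures measured as a whole, fewer cells of a type and less RNA per cell cannot be told apart. In separate assays the authors report cell death that rose and fat that fell with the serotonin dose. That fat was measured 4 days after stimulation, whereas the arrays were at 12 h.

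The pMA carried some markers of adipocytes and lacked others. PLIN2, which coats lipid droplets, had a level of 0.29 in PIP cells and 3.42 in pMA. CIDEC, a protein of large droplets, had -4.69 and -0.82 on its brighter probe. The 2 probes of CIDEC had log2 ratios of 3.87 and 0.75 to PIP cells, the second under 2-fold. In unstimulated pMA, ADIPOQ and CEBPA were dim, that is not well above background, and PLIN1 was dim on every array. The probe read for ADIPOQ was well above background in PIP cells only, at a level of -4.53. Summed over the 10 adipocyte markers, the scaled intensity was 3.14 in PIP cells, 14.0 in pMA, 19.8 after TNF-α and 33.2 after serotonin, and PLIN2 made up 76.5% of the sum in pMA and 64.6% after serotonin. The single markers moved both ways on the serotonin array. LPL, lipoprotein lipase, was 5.32-fold higher than in unstimulated pMA, whereas FABP4, the fatty acid carrier of adipocytes, was 6.83-fold lower, and lower on all 4 probes with a ratio. PPARG had a log2 ratio of -0.08 and DGAT2 of -0.27. Against TNF-α, FABP4 was 18.6-fold and CIDEC 3.17-fold lower after serotonin. In unstimulated pMA against PIP cells the log2 ratio was at least 3.08 for FABP4, 1.07 for PPARG, 0.79 for DGAT2, 0.37 for LPL and 0.31 for LEP.

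Markers of other cells were summed in the same way, and most sums were carried by 1 gene. The sum over 5 muscle markers was 656 in unstimulated pMA and 174 after serotonin, of which ACTA1 gave 98.4% and 96.8%. The log2 ratios after serotonin were -1.94 for ACTA1, -1.02 for DES and -0.01 for MYOG, and MYOD1 and MYF5 were not well above background on any array. The probes of a gene differed widely, from -2.63 to -0.26 over 11 probes of ACTA1 and from -2.59 to -0.55 over 4 of DES. The sum over 4 fibroblast markers was 401 to 526, at least 87.7% of it VIM. COL1A1 was 2.66-fold lower after serotonin and THY1 1.83-fold lower on 3 of 3 probes. The 4 endothelial markers summed to 1.14 in unstimulated pMA and 0.476 after serotonin, mostly PECAM1, and CDH5 was not well above background on any array. The macrophage sum (1.36 to 2.97, 2 genes) was nearly all CD14, with CD163 not well above background, and the epithelial or hepatocyte sum was 0.158 to 0.301 over 6 genes. ALB, a liver gene, had a level of -3.77 in unstimulated pMA and -3.95 after serotonin. The part of these shifts in the values below was not tested.

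The probes are 60 bases long, and each reports only the stretch of transcript that it matches. Shown here are a probe each of the 2 neighbouring CYP1A genes, of which CYP1A1 was bright and CYP1A2 dim or faint after serotonin, of TIPARP, and of ARNT.
CYP1A1 probe at position 1046 of its transcript: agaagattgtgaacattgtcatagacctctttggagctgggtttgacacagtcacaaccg
CYP1A2 probe at position 994: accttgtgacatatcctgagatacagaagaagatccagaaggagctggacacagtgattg
TIPARP probe at position 1101: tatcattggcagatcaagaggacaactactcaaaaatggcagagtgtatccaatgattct
ARNT probe at position 316: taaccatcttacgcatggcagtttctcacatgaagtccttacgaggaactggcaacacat
The 11 probes of the battery had a GC content of 35.0% to 45.0%, against a median of 41.7% for all probes. No other probe of the array shared a run of 20 bases with any of them. In the RefSeq annotation of Sscrofa11.1, CYP1A1 and CYP1A2 lie side by side on chromosome 7 with 0 genes between them. The files give no genome build, so no coordinates are given.

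ARNT is the partner that AHR needs in order to bind DNA. All 4 of its probes were well above background on every array. The brightest, at position 2519, had a level of 0.14 in PIP cells, 1.06 in unstimulated pMA, 0.98 after TNF-α and 1.10 after serotonin. The probe at position 316 had -3.27, -2.47, -2.35 and -2.27 in the same order. On each of the 4 probes PIP cells gave the lowest level. Unstimulated pMA stood above PIP cells by a log2 ratio of 0.52 to 0.92 on the 4 probes, which stayed under 2-fold, although the brightest probe passed it after scaling to spike-in controls (1.22) and after scaling to probes well above background on all arrays (1.01). After serotonin the 4 probes had log2 ratios of -0.14 to 0.20 to unstimulated pMA, and after TNF-α of -0.08 to 0.12. These values span both signs, and most are within or close to the technical standard deviation, so the 3 arrays of pMA have no order for ARNT.

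CYP1A1, the P450 most often used as a readout of the receptor, was seen in PIP cells and after serotonin. Its brighter probe, at position 2805, had a level of -2.17 in PIP cells, -5.31 in unstimulated pMA, -5.11 after TNF-α and 4.03 after serotonin. The corresponding intensities were 114, 12.0, 16.2 and 9269. The probe was well above background in PIP cells and after serotonin, and not in unstimulated pMA or after TNF-α. The probe at position 1046 had levels of -3.94, -6.38, -6.69 and 2.49 in the same order of conditions, with intensities of 33.5, 5.75, 5.40 and 3170, and the same 2 arrays stood above background.

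Serotonin gave at least 407-fold more CYP1A1 signal than no stimulation at position 2805, and at least 139-fold more at position 1046. It was the highest of the 19093 gene names with a ratio to unstimulated pMA. Against TNF-α, which was compared directly, the signal after serotonin was at least 567-fold higher at position 2805 and at least 213-fold higher at position 1046, again the highest, here of 21864 gene names. The bound depends on how background is treated: with a normexp correction, which raises faint values, the log2 ratio to unstimulated pMA was 6.43 in place of 8.67. Between TNF-α and unstimulated pMA no ratio was calculated, since both arrays were dim for both probes. The authors list CYP1A1 as higher after serotonin and unchanged after TNF-α on the array. Their RT-qPCR went the other way, with CYP1A1 significantly lower after each stimulation. Why the array and the RT-qPCR differ was not tested.

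CYP1A1 was lower in pMA than in PIP cells, by at least 5.52-fold at position 2805 and at least 1.62-fold at position 1046. With the normexp correction the first of these log2 ratios was -0.95 in place of -2.46, which is under 2-fold. The technical error of the scanner software for the PIP value was 10.6% at position 2805 and 13.5% at position 1046. The 2 probes thus gave the same direction in each of the 3 comparisons with a ratio, and the dimmer probe gave the smaller bound in each.

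CYP1A2 codes for the P450 of the same family that is best known from liver. Its brighter probe, at position 1875, had a level of -4.07 in PIP cells, -3.40 in unstimulated pMA, -2.98 after TNF-α and -3.34 after serotonin, with intensities between 30.7 and 70.9. It was well above background on all 4 arrays, lowest in PIP cells and highest after TNF-α. The serotonin and the unstimulated array differed by 0.05 on the log2 scale, which is within the technical standard deviation of 0.13. The probe at position 994 had levels of -5.65, -6.48, -4.62 and -5.89 in the same order and passed background on 1 array, that of TNF-α, where its intensity was 22.7. No ratio of CYP1A2 reached 2-fold: the log2 ratios at position 1875 were 0.67 for pMA against PIP cells, 0.42 for TNF-α and -0.36 for serotonin against TNF-α. On the array where the CYP1A1 probes had their highest intensities, the CYP1A2 probes were at 9.57 and 55.7.

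**Figure D1:**
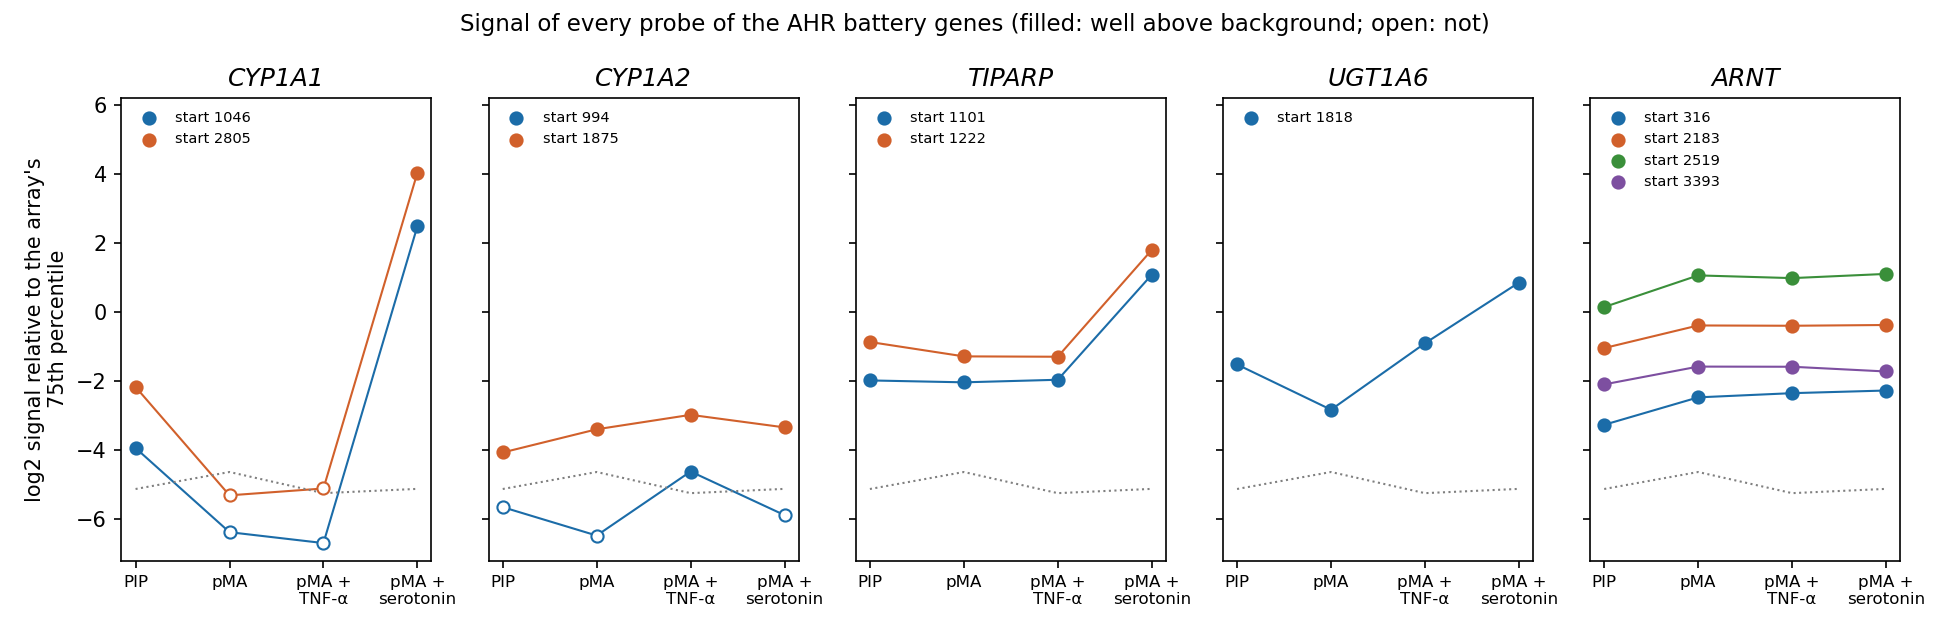
Level of every probe of the 5 genes on the 4 arrays, as log2 intensity relative to the array's 75th percentile (vertical axis), with 1 line per probe labelled by its start in the transcript. Filled points are well above background, open points are not, and the dotted line is the faintest level well above background. CYP1A1 is open in pMA and after TNF-α and reaches 4.03 after serotonin, TIPARP and UGT1A6 are highest after serotonin, and ARNT is flat over the 3 arrays of pMA.

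TIPARP, a PARP family enzyme that modifies AHR and lowers its activity, is itself a target of the receptor. The probe at position 1222 had a level of -0.87 in PIP cells, -1.29 in unstimulated pMA, -1.30 after TNF-α and 1.80 after serotonin. The probe at position 1101 had -1.98, -2.04, -1.96 and 1.08. All of these values were well above background. The serotonin array stood above the 3 others on both probes, and the levels of unstimulated pMA and TNF-α differed by less than the technical standard deviation.

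The log2 ratio of TIPARP after serotonin was 3.08 at position 1222 and 3.12 at position 1101, that is 8.47-fold and 8.67-fold. The 2 probes thus differed by 0.03, and the gene ranked 15 of the 19093 gene names. Against TNF-α the ratios were 3.09 and 3.04. After TNF-α alone they were -0.01 and 0.07. In pMA against PIP cells they were -0.42 and -0.06, so that 1 of the 2 probes lay beyond the technical standard deviation of 0.12.

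UGT1A6 codes for a transferase that couples glucuronic acid to phenols, among them serotonin. In mammals the UGT1A genes share their last exons, so a probe near the end of the transcript may report other members of the locus. The probe, at position 1818, had a level of -1.52 in PIP cells, -2.83 in unstimulated pMA, -0.91 after TNF-α and 0.85 after serotonin, and was well above background throughout. The levels thus ran from unstimulated pMA over PIP cells and TNF-α to serotonin, and each step was larger than the technical standard deviation.

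After serotonin UGT1A6 was 12.8-fold higher than in unstimulated pMA (log2 ratio 3.68), rank 9 of 19093 gene names. After TNF-α it was 3.79-fold higher (1.92), rank 95 of 19785. Compared directly, serotonin gave 3.38-fold more signal than TNF-α (1.76). In pMA it was 2.48-fold lower than in PIP cells (-1.31), a value that was -0.75 with the normexp correction. The unstimulated array enters 3 of these comparisons, so an error of that array would move them together.

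Over the battery, 3 of 5 genes with a ratio were at least 2-fold higher after serotonin and 0 were lower, where 6.82% of all gene names passed 2-fold, 2.08% higher and 4.74% lower. The median log2 ratio was 3.08 for the 5 genes and 0.01 for all gene names. After TNF-α 1 of 4 genes was at least 2-fold higher, against 3.55% of all gene names past 2-fold (2.21% higher and 1.34% lower), with a median of 0.20 and of 0.01 for all. Serotonin against TNF-α gave 3 of 5 genes higher, against 6.9% of all past 2-fold (1.82% higher and 5.08% lower), with a median of 1.76 and of -0.04 for all. In pMA against PIP cells 2 of 5 genes were at least 2-fold lower, CYP1A1 and UGT1A6, against 13.5% of all past 2-fold (9.92% higher and 3.56% lower), and the medians were -0.42 and 0.12. Neither passed 2-fold in that comparison with the normexp correction. Since the members were chosen with these ratios in view, nothing is read from the shares.

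**Figure D2:**
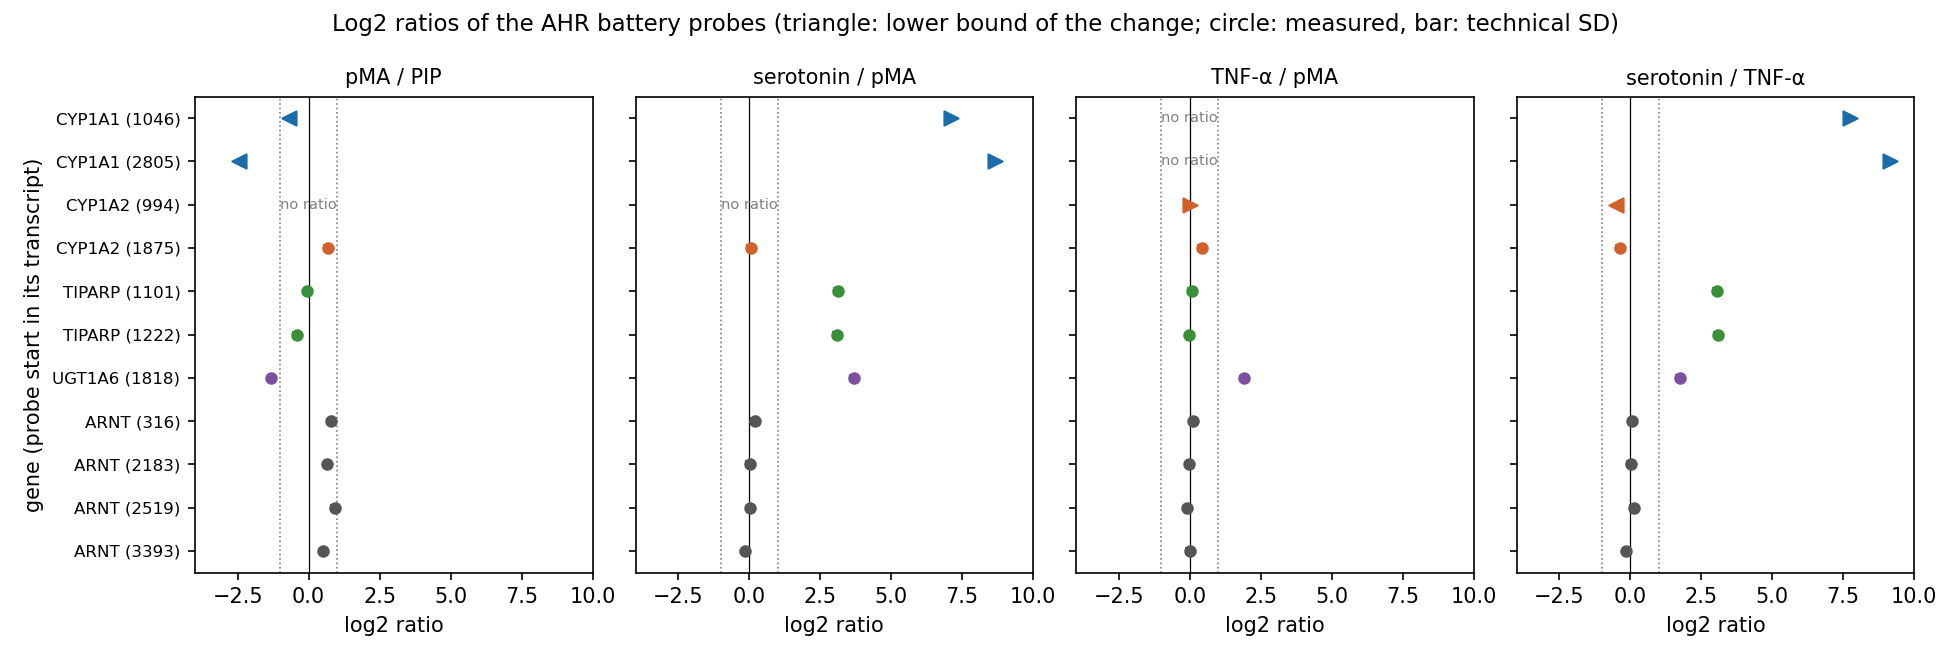
Log2 ratio of each probe (rows, gene and start in the transcript) in the 4 comparisons (panels). Circles are measured ratios with the technical standard deviation as a bar, mostly hidden by the circle, triangles are lower bounds of a change in the direction they point, and dotted lines mark 2-fold. After serotonin the CYP1A1 bounds lie at 7.12 and 8.67, UGT1A6 at 3.68 and both TIPARP probes near 3.1, while the ARNT probes lie between -0.14 and 0.20.

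The other genes of the pathway were followed by 7 lists of 90 genes in all. The lists were chosen with earlier results of these data known, so their shares are a description. The chaperone complex of the receptor had 3 of 5 genes on the array, and in each of the 4 comparisons 0 of them differed 2-fold. Of all gene names 3.55% to 13.5% did so in these comparisons, so that 0 of 3 is near the share. The largest value after serotonin was that of PTGES3, a co-chaperone of HSP90, at 0.53. Of the repressor and coactivators, 7 of 10 genes were on the array and 0 differed 2-fold in any comparison, against the same 3.55% to 13.5% of all gene names. The largest value after serotonin was that of SP1, a transcription factor, at 0.51. The median log2 ratios after serotonin were 0.04 for the chaperones and 0.24 for the coactivators. AHRR, the repressor that the receptor itself induces, was not found on the array by name.

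Further genes that AHR can induce had 6 of 16 names on the array, and 3 of them gave a ratio. NQO1, a quinone reductase, had a level of 0.59 in PIP cells, -0.41 in unstimulated pMA, -0.28 after TNF-α and 2.13 after serotonin. It was 5.80-fold higher after serotonin (log2 ratio 2.54, with 3 probes from 2.32 to 2.54), with 0.13 after TNF-α. STC2, a secreted glycoprotein, had 4.71, 3.82, 4.33 and 2.07, and was 3.36-fold lower after serotonin (-1.75, with 3 probes from -1.75 to -0.88). The 2 genes thus stood at least 2-fold from unstimulated pMA on the same array but in opposite directions. NFE2L2, the transcription factor NRF2, had 0.63 after serotonin. GSTA1 and GSTA2, glutathione transferases, and LRAT, which esterifies retinol, were not well above background on any array.

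Targets of NRF2 were followed because NQO1 is also one of them, and 12 of 15 were on the array. After serotonin 5 of 12 were at least 2-fold higher and 0 lower, against 2.08% and 4.74% of all gene names. A positive log2 ratio was found for 11 of 12, against 51.1% of all gene names, and the median was 0.97, against 0.01. Since the list was chosen with earlier results of these data known, nothing is read from these shares. After TNF-α 0 of 12 differed 2-fold, against 3.55% of all gene names, with a median of -0.08. AKR1C1, a ketosteroid reductase, had a level of -2.03 in PIP cells, -1.15 in unstimulated pMA, -0.82 after TNF-α and 2.58 after serotonin. It was 13.3-fold higher after serotonin, and 3 of its 6 probes gave a ratio, from 3.73 to 5.43 on the log2 scale. For serotonin against TNF-α 4 probes gave a ratio, from -0.16 to 5.55, and 3 of them were higher. GCLC and GCLM, the subunits of the enzyme that limits glutathione synthesis, had log2 ratios of 2.55 and 1.56. TXNRD1, thioredoxin reductase, had 1.53 (6 probes from 1.44 to 2.34), and GSR, glutathione reductase, had 1.09. In pMA against PIP cells 0 of the 12 differed 2-fold, against 13.5% of all gene names, with a median of -0.35. With scaling to the median GCLC (-1.15) and GCLM (-1.13) passed as lower, and with scaling to spike-in controls AKR1C1 (1.19, from 0.89) passed as higher.

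ARNT also serves the hypoxia-inducible factors, and 11 of 16 genes of that branch were on the array. After serotonin 0 of 11 differed 2-fold, against 6.82% of all gene names, and the median was -0.22. After TNF-α 0 of 11 differed 2-fold, against 3.55% of all gene names, 9 of 11 had a positive ratio, against 50.8%, and the median was 0.47, against 0.01. Serotonin against TNF-α gave 2 of 11 genes lower, where 5.08% of all gene names were. They were LDHA, lactate dehydrogenase (-1.46), and ADM, the peptide adrenomedullin (-1.01, and -0.89 to -0.95 with 3 other scalings). In pMA against PIP cells ADM (1.71), SIM1, another partner of ARNT (1.39), and NDRG1 (1.15, and 0.80 with scaling to the median) were higher, 3 of 11 where 9.92% of all gene names were.

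The electron supply and heme of the P450 enzymes had 6 of 13 genes on the array. After serotonin and after TNF-α 0 of them were past 2-fold, against 6.82% and 3.55% of all gene names. HMOX1, which degrades heme, had 0.81 on its brightest probe after serotonin, with 3 probes from 0.81 to 1.04, the highest past 2-fold. POR, the reductase that feeds electrons to CYP1A1, had 0.50 on its brightest probe, with 3 probes from -0.01 to 0.50. PPOX, an enzyme of heme synthesis, was 2.22-fold lower in pMA than in PIP cells (-1.15, and -0.85 with scaling to spike-in controls). Tryptophan and serotonin metabolism had 6 of 15 genes on the array and 3 with a ratio. MAOA, the oxidase that degrades serotonin, had a level of 3.15 in PIP cells, 3.69 in unstimulated pMA, 2.85 after TNF-α and 3.09 after serotonin, with log2 ratios of -0.60 after serotonin and -0.84 after TNF-α. ALDH2, the dehydrogenase that acts after it, was higher in pMA than in PIP cells (1.27, and 0.92 with scaling to the median) and lower after TNF-α (-1.06, but just under 2-fold with scaling to spike-in controls). KMO, TPH2 and DDC, of the kynurenine branch and of serotonin synthesis, were not well above background on any array.

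**Figure D3:**
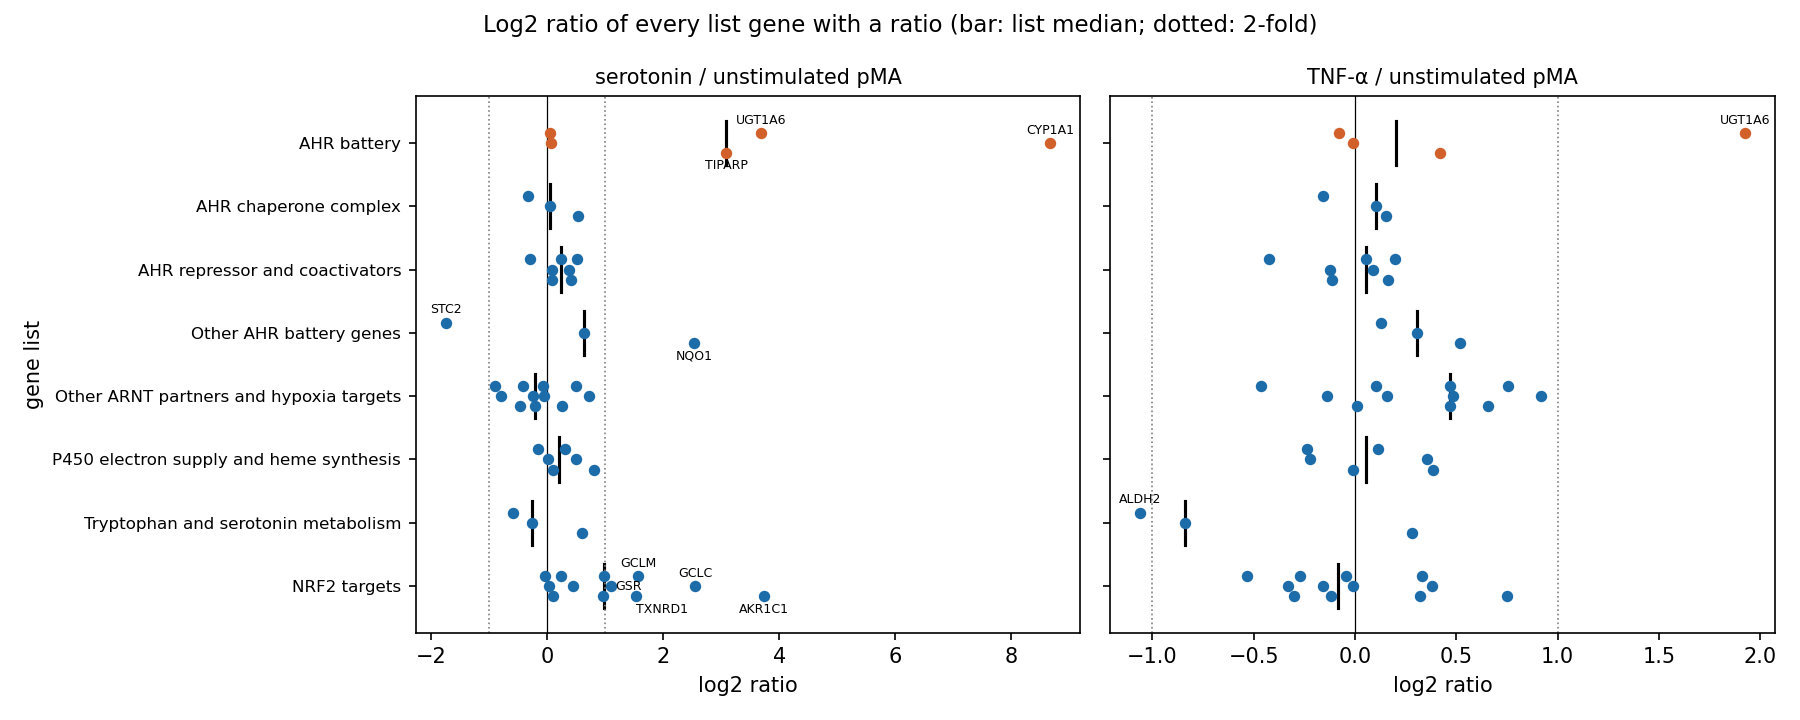
Log2 ratio of each gene with a ratio (points) by gene list (rows), after serotonin (left) and after TNF-α (right), each against unstimulated pMA. The black bar is the list median, dotted lines mark 2-fold, genes past it are named, and the 2 panels have different horizontal scales. After serotonin, genes past 2-fold lie in the battery, in its further targets and among the NRF2 targets. After TNF-α they are UGT1A6 and ALDH2.

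Genes whose 4 levels ran most like those of a member were ranked by the distance between their log2 levels, each centred on its own mean, over 4 arrays and 4851 gene symbols well above background on all of them. Nearest to TIPARP were HMGA1 (distance 0.71), DIO2 (0.73) and GCLC (0.77). HMGA1 codes for a chromatin protein and DIO2 for the deiodinase that activates thyroid hormone. Nearest to UGT1A6 were IL1A, the cytokine interleukin-1 alpha (0.63), HMGA1 (0.87) and NR4A2, a nuclear receptor (0.88). HMGA1 had levels of -1.34 in PIP cells, -1.71 in unstimulated pMA, -0.95 after TNF-α and 1.29 after serotonin. IL1A had 0.01, -0.79 and 1.49 on the first 3 of these arrays and was highest after serotonin.

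Nearest to ARNT were PAQR4 (0.03), AGA (0.06) and CTSF (0.06), and nearest to CYP1A2 were CD82 (0.05), CCDC19 (0.12) and GSTK1 (0.14). ARNT and CYP1A2 thus had closer neighbours than TIPARP and UGT1A6, whose levels span more of the scale. With 4 points to a gene and 4851 genes, close matches occur in any case, and the distances are a description.

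CYP1A1 was not well above background on all arrays, so it was compared by its pattern of detection. Of 6564 gene symbols, 37 were well above background on the serotonin array only, against 234 on the TNF-α array only, 25 on the PIP array only and 10 on the pMA array only. Of the 37, 18 exceeded the other 3 arrays by a bound. The 10 with the largest bounds, on the log2 scale, were PSD (1.59), THBD (1.36), SH3YL1 (0.65), EBF2 (0.52), PLEKHH1 (0.27), SDS (0.26), ATL2 (0.22), ZNF445 (0.20), PIM2 (0.20) and PYY (0.19). Only PSD and THBD thus exceeded 2-fold. The pattern was that of the probe read for each gene. It held on 1 of 3 probes of THBD, 1 of 3 of SDS and 1 of 2 of PLEKHH1. The authors list THBD as higher after both stimulations. CYP1A1 itself does not belong to this set, since it was well above background in PIP cells too. The pattern of detection in PIP cells and after serotonin, chosen after the values of CYP1A1 were seen, was shared by 12 symbols. Next to CYP1A1 in this set came RGS5, a regulator of G-protein signaling, with at least 3.27-fold more signal after serotonin than on either dim array, and SLC34A2, a phosphate transporter, with at least 2.71-fold.

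**Figure D4:**
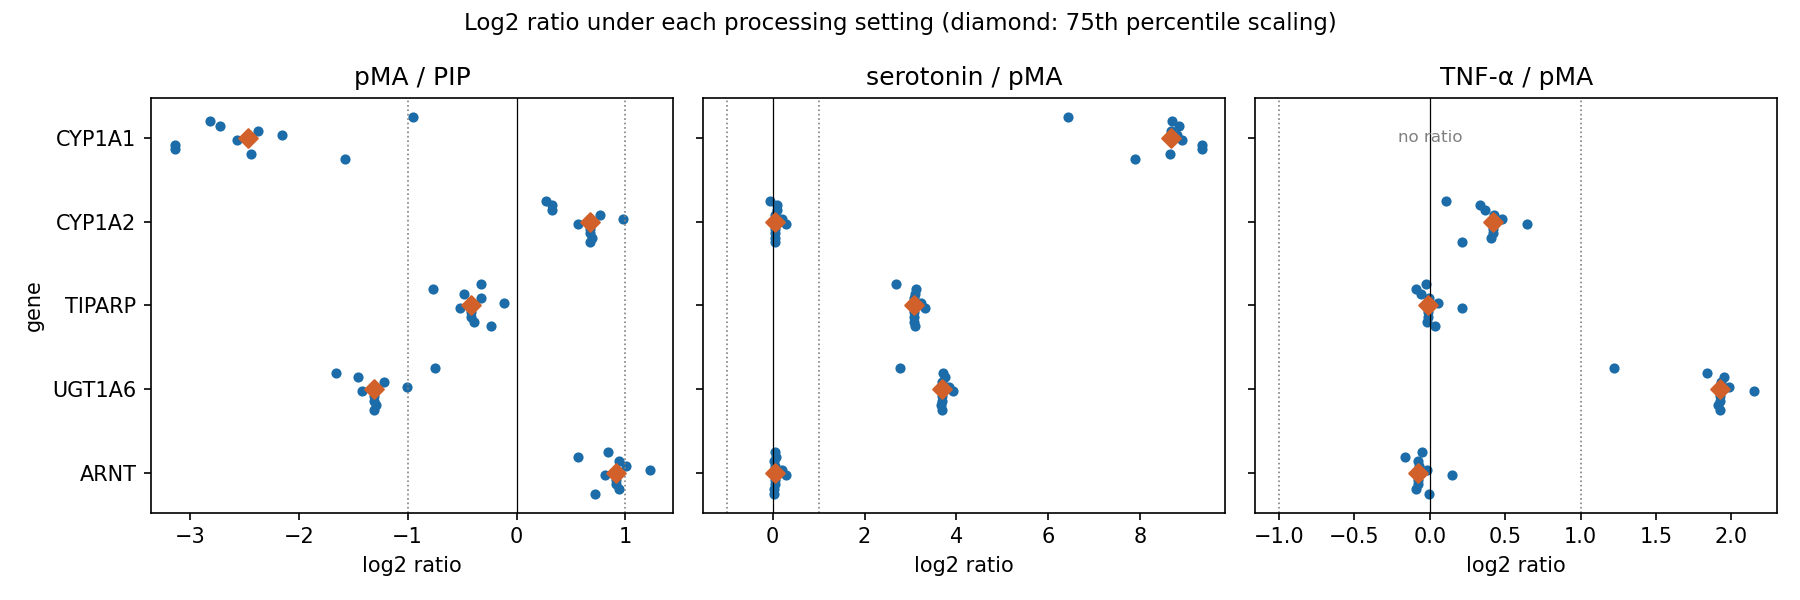
Log2 ratio of the 5 genes (rows) under the reported processing (orange diamond) and under 10 other settings (blue points), for pMA against PIP cells, serotonin against pMA and TNF-α against pMA. Dotted lines mark 2-fold, and the panels have different horizontal scales. After serotonin the lowest values were 6.43 for CYP1A1, 2.69 for TIPARP and 2.78 for UGT1A6, and those of CYP1A2 and ARNT stayed near 0.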

How the data were processed

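Gene expression was measured on 4 one-color porcine arrays, with 1 array per condition and RNA pooled per group. The methods also name a mouse array and a two-color protocol, but the files are of 1 color. The authors deposited intensities from Agilent Feature Extraction 10.7.3.1 (background-subtracted processed signal) and a table of the same signal divided by a constant per array. Per the file headers no genome build applies. Processed intensities were divided by the array's 75th percentile over non-control spots that are not outliers and put on a log2 scale, with Python 3.11.15, numpy 2.4.6 and pandas 2.3.3. A gene was read from its probe with the highest mean. Dim values were raised to the detection limit of their array where they lay below it, and no ratio was given where both arrays were dim or the bound was under 1. Scripts were tested on simulated data. The cutoff was 2-fold, as in the methods. Alternatives were normexp background correction (offset 50, limma 3.58.1 in R 4.3.3), scaling by the median, by quantiles, by probes well above background on all arrays, by spike-ins or not at all, a weaker or no filter on dim probes, the authors' table, and the median of a gene's probes.

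The named genes were the 7 members with every probe; of each list the genes past 2-fold in any comparison or, where fewer than 2 passed, the one that moved most after serotonin; the first 10 symbols seen on the serotonin array only; and the 3 symbols nearest to each member. NFE2L2, POR, the cell type markers and the genes not above background were named beside them. Members and lists were chosen with earlier results of these data known. The number of arrays limits the precision.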

Additional observations from a re-analysis of the deposited data

Results flagged for a closer look

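A signal above the level in unstimulated pMA was also seen after serotonin on 3 probes that carry other names. They were not read as members, but their names were counted among all gene names in the ranks, medians and shares above. A pair of probes named ENSSSCT00000017765 list an accession of UGT1A6 among their targets. The first had a level of -0.09 in PIP cells, -1.44 in unstimulated pMA, 0.50 after TNF-α and 2.27 after serotonin, and the second had 0.01, -1.22, 0.76 and 2.53. Their log2 ratios after serotonin were 3.71 and 3.75, after TNF-α 1.94 and 1.97, and in pMA against PIP cells -1.35 and -1.23. The probe named UGT1A6 gave 3.68, 1.92 and -1.31 in the same comparisons, so the 3 probes differed by about the technical standard deviation or less in each comparison. They match other stretches of sequence, and whether they report UGT1A6 alone or the whole UGT1A locus was not tested.

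The third probe, TC539873, is described on the array as part of a cytochrome P450 1B1 like that of the striped dolphin. Its level was -0.28 in PIP cells, 1.48 in unstimulated pMA, 0.86 after TNF-α and 4.89 after serotonin, each well above background. It was 10.6-fold higher after serotonin than in unstimulated pMA (log2 ratio 3.41) and 16.3-fold higher than after TNF-α. In pMA it was 3.40-fold higher than in PIP cells (1.76), whereas CYP1A1 was lower in pMA. The name CYP1B1 was not on the array, and the description is the only link of this probe to that gene. None of these 3 values has a replicate check.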

How the results depend on the processing

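The count of battery genes past 2-fold was 3 after serotonin, 1 after TNF-α and 3 for serotonin against TNF-α under each of 10 other settings. In pMA against PIP cells it was 2 to 3, and 0 with the normexp correction, which raises faint values. No member past 2-fold changed direction under any setting that gave a ratio. After serotonin the log2 ratio lay between 6.43 and 9.35 for CYP1A1, 2.69 and 3.32 for TIPARP and 2.78 and 3.92 for UGT1A6, and after TNF-α between 1.22 and 2.15 for UGT1A6. CYP1A2 after serotonin and TIPARP and ARNT after TNF-α took both signs. Of 558 single values recomputed, for members, list genes and list medians, 408 moved by less than the technical standard deviation and 150 by more. Scaling by the median or by spike-ins shifts every ratio of a comparison by the same amount. The cause of the other moves was not tested.

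The background counts of gene names past 2-fold (2513 for pMA against PIP, 1303 for serotonin, 703 for TNF-α and 1509 for serotonin against TNF-α) depended on faint probes: in that order they were 823, 578, 267 and 694 with normexp, 7128, 3901, 3235 and 4453 without the filter on dim probes, 7128, 3901, 3234 and 4453 with the weaker positive and significant flag, and 343, 187, 100 and 274 at a 4-fold cutoff. For pMA against PIP, spike-in scaling gave 3918. There the median log2 ratio of all genes moved from 0.12 to 0.44 with spike-in and to -0.22 with median scaling, and the share of calls that were higher from 73.6% to 91.0% and 34.1% (54.6% with quantile normalization, 63.6% with no scaling). After serotonin that share was 30.5%, 49.5% with spike-in scaling and 61.6% with no scaling, where the median moved to 0.24. After TNF-α it was 62.3%, 50.2% with median scaling, 49.3% with quantile normalization and 86.2% with no scaling. For serotonin against TNF-α it was 26.4%, 40.4% with median scaling, 39.3% with quantile normalization and 36.6% with spike-in scaling. Of the 44 values of the battery's probes, 37 were well above background and 43 carried the weaker flag; the median of a gene's probes gives no such count. The list genes past 2-fold after serotonin numbered 7, and 7 to 9 with other settings. No paired analysis was possible because each group holds 1 array. Leaving out a replicate was likewise not possible, and signal near background limits the CYP1A1 and CYP1A2 values.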
